A study of Mus musculus with 19 samples.

Results

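Complement and coagulation genes were examined in the obstructed kidneys of WT and CD5L KO mice given PBS or rCD5L. The set was taken by gene symbol and held 47 of the 54532 genes of the count table. It comprised 9 genes that start complement activation (C1qa, C1qb, C1qc, C1ra, C1s1, Masp1, Masp2, C2 and C4b), 6 of C3, the alternative pathway and the terminal pathway (C3, Cfb, Cfd, Cfp, C6 and C7), 5 complement regulators (Cfi, Cd55, Cd59a, Cr1l and Serping1) and 3 receptors of the anaphylatoxins (C3ar1, C5ar1 and C5ar2). On the coagulation side were 10 procoagulant factors and carriers (F3, F5, F7, F8, F10, F13a1, Vwf, Fga, Fgb and Fgg), 8 anticoagulants and their receptors (Thbd, Procr, Proc, Pros1, Tfpi, Tfpi2, Serpind1 and A2m), and 6 genes of fibrinolysis and the thrombin receptor (Plat, Plau, Plaur, Serpine2, Serpinf2 and F2r). Of these, 46 had enough counts to be tested in every comparison. Masp2, a protease of the lectin pathway, was at 0 to 0.843 CPM (counts per megaread of TMM-scaled library size) and was not tested.

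The kidneys came from 19 male mice on a C57BL/6J background, 8 to 9 weeks old, in which the left ureter had been tied and cut, a procedure (unilateral ureteral obstruction, UUO) that is followed by tubular injury, inflammation and fibrosis. Of the WT mice, 5 received PBS and 5 received rCD5L (recombinant CD5L, a macrophage-derived plasma protein). Of the CD5L KO mice, 4 received PBS and 5 received rCD5L. The protein was injected into the peritoneum each day at 0.5 mg per mouse, PBS in the same volume, and kidneys were taken on day 12 after perfusion with heparin. RNA of the whole organ was sequenced, so fewer cells of a type and less RNA per cell cannot be told apart. All 19 kidneys were obstructed, and a level in an unobstructed kidney was not analysed here.

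Complement is a plasma cascade in which C1q, bound to antibody or to dying cells, activates the proteases C1r and C1s, and the classical, lectin and alternative routes meet at C3. Cleavage of C3 and C5 releases anaphylatoxins that act on leukocyte receptors, while factor I, CD59 and C1 inhibitor limit the cascade on host cells. Coagulation begins when tissue factor binds factor VII and ends when thrombin turns fibrinogen into fibrin, which plasmin dissolves after urokinase or tissue plasminogen activator has activated it. Most of these plasma proteins are made by the liver, but macrophages are a main source of C1q, endothelium of von Willebrand factor and thrombomodulin, and injured tubular epithelium is known to make C3, urokinase and fibrinogen.

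The promoters of the fibrinogen chain genes are shown because Fga, Fgb and Fgg lie side by side on chromosome 3 of GRCm38 (83007724 to 83049863), varied together between kidneys and had the 3 smallest p-values among the members when CD5L KO and WT kidneys given rCD5L were compared. Each sequence is the 250 bases before the start of transcription in RefSeq (GRCm38.p6), written 5′ to 3′ on the strand of the gene. Capitals mark every match, on either strand, to the core bound by HNF1 (GTTAAT, or ATTAAC on the other strand), the core of IL-6 response elements of acute-phase genes (CTGGGA), the C/EBP site (TTGCNNCAA) and the PU.1 site (GAGGAAG).
Fga (chr3:83025903-83026152, plus strand): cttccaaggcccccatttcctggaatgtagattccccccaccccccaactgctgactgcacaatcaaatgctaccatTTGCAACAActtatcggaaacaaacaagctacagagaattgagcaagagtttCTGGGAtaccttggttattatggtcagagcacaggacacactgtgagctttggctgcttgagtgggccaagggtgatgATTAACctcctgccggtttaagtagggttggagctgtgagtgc
Fgb (chr3:83049864-83050113, minus strand): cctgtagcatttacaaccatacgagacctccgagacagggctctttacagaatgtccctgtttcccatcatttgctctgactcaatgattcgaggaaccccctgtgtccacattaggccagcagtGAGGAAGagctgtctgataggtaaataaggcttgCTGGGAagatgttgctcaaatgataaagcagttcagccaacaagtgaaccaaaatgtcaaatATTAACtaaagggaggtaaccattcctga
Fgg (chr3:83007474-83007723, plus strand): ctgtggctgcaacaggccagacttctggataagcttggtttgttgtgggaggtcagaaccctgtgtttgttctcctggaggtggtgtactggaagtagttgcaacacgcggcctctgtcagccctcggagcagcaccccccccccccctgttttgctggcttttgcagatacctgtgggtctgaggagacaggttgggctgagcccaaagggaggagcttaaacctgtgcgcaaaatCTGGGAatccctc
All 3 windows held CTGGGA, starting 121 bases before the start of Fga, 91 before Fgb and 13 before Fgg. The windows of Fga and Fgb also held ATTAAC, 43 and 29 bases before the start. Fga had the only C/EBP match of the 3, at 173 bases before the start, and Fgb the only PU.1 match, at 125. No marked match overlapped another in these windows. The RefSeq start of Fga lies inside the gene as the count table gives it, at 83026076 to 83033627.

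A promoter was matched for 34 of the 47 members. CTGGGA was found in 15 of them (44.1%), against 26.8% of 27025 RefSeq promoters of the same length. The HNF1 core was found in 6 (17.6%, against 6.52%), the C/EBP site in 3 (8.82%, against 1.78%) and the PU.1 site in 4 (11.8%, against 10.4%). These are counts of letters and were not tested, and several members lie close together, with Cfb and C2, C1qa, C1qb and C1qc, C1ra and C1s1, C5ar1 and C5ar2, and F7 and F10 each within 1 short interval of the genome.

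Total counts per kidney ranged from 17917491 to 23847090. Cd5l had 0 counts in every CD5L KO kidney and 3 to 15 in the WT kidneys. Markers of proximal tubule, distal nephron, podocytes, endothelium, fibroblasts and macrophages were found in every kidney. Replicate 4 of the CD5L KO rCD5L group stood apart. The summed level of 8 proximal tubule markers was 14546 CPM in it and 1002 to 2391 in the other 18 kidneys, that of 10 macrophage markers was 590 against 1426 to 2353, and that of 8 fibroblast markers was 1367 against 2750 to 6226. It had the lowest value of the 19 kidneys for 25 members and the highest for 12, and the members together took 0.323% of its counts against 0.611% to 0.731% in the others. Member fold changes that rest on replicate 4 are given with and without it. Replicate 3 of the CD5L KO rCD5L group came next, with the highest value of the 19 kidneys for 8 members and the lowest for 6.

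**Figure D1:**
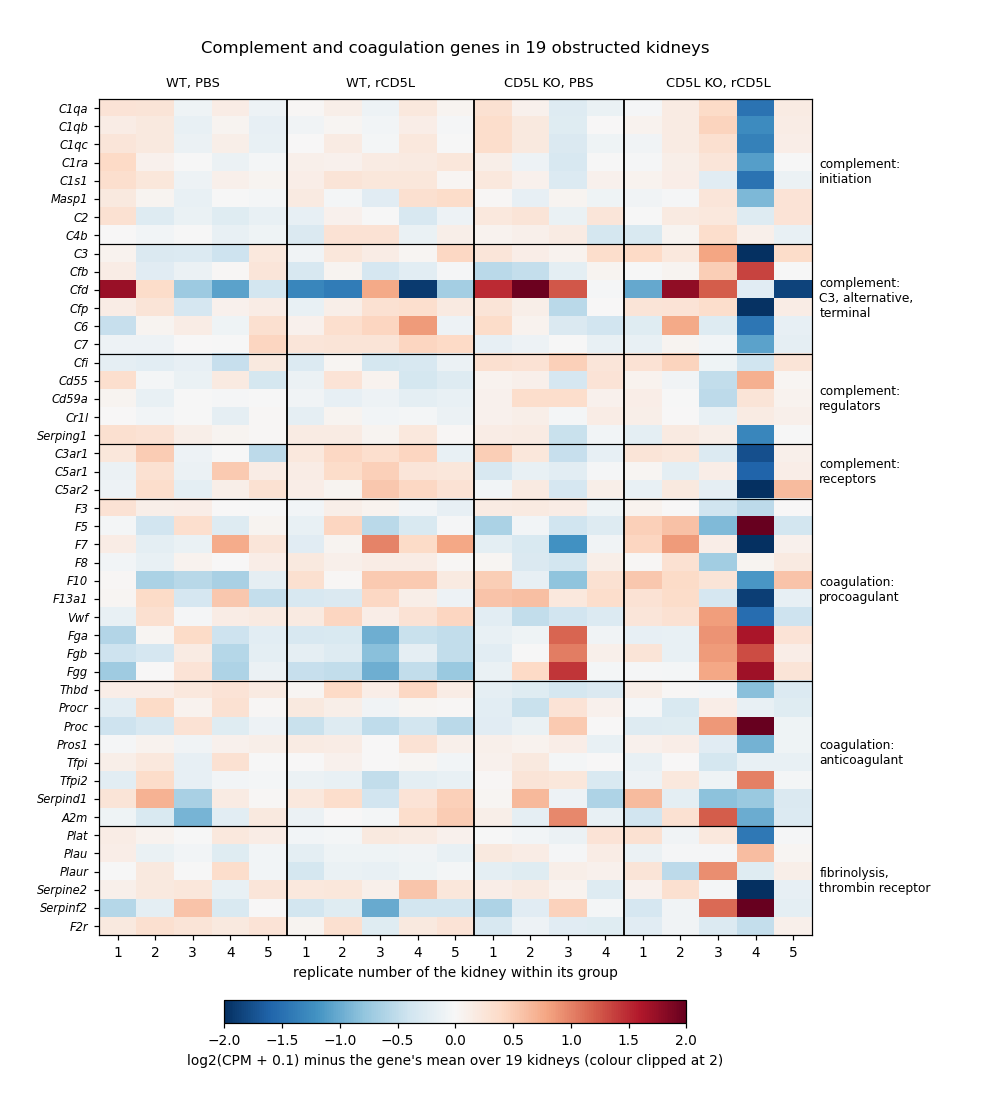
Level of the 46 tested members (rows, by role) in each of the 19 kidneys (columns, by group and replicate number). Colour is log2(CPM + 0.1) minus the mean of the gene over the 19 kidneys, clipped at 2, and the column of CD5L KO rCD5L replicate 4 stands apart, with C3 at 239 CPM and Serpinf2 at 578.

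Levels of different genes were compared per length, as the authors' FPKM. The highest median over the 19 kidneys was that of C1qa, at 265.6 FPKM, followed by C3 (262.4), C1qb (258.3), Plau (243.0) and Serping1 (231.3). The ranges of these 5 genes over the kidneys overlapped, from 84.8 to 322 for C1qa, from 36.0 to 397 for C3 and from 215 to 365 for Plau, so their order is not firm. C1qc, the third chain of C1q, was at 112 FPKM, and F2r, the thrombin receptor PAR1, at 103.

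At the other end of the scale, F5, A2m and Serpind1 had medians of 0.293, 0.228 and 0.418 FPKM. F7, the protease that tissue factor binds, was at 0.614, while F3, tissue factor itself, was at 30.8. Of the fibrinogen chains, Fgg (26.9) and Fga (23.7) were close to each other, and Fgb was lower, at 2.98. The ratio of Fga to Fgg was 0.689 to 1.14 in the 19 kidneys and that of Fgg to Fgb was 6.73 to 11.1. Genes with a near copy are less certain, since reads may be split between the copies. These are C4b (C4a), C1ra (C1rb), C1s1 (C1s2) and Cd59a (Cd59b).

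To ask what the loss of CD5L changed in the obstructed kidney, CD5L KO and WT mice given PBS were compared. Cfi, which encodes the protease that inactivates C3b and C4b, was higher in CD5L KO kidneys. Vwf, the carrier of factor VIII and tether of platelets, Thbd, the receptor through which thrombin activates protein C, and F2r were lower. These 4 were the members with an adjusted p under 0.05 in edgeR's quasi-likelihood test. They make 8.70% of the 46 tested, against 10.5% of all 17579 genes tested (5.13% higher and 5.4% lower), so the share was near that of all genes. The median log2 fold change of the 46 was -0.03, with 20 above 0 and 26 below, and 49.3% of all genes were above 0.

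Cfi (chromosome 3, 129835884 to 129875332, GRCm38) stood at 69.6, 68.4, 78.0 and 65.9 CPM in the CD5L KO kidneys given PBS and at 49.2, 47.9, 50.0, 40.4 and 63.6 in the WT kidneys given PBS. Every CD5L KO kidney was above every WT kidney, although WT replicate 5 came close to CD5L KO replicate 4. The log2 fold change was 0.48 (SE 0.105, edgeR adjusted p = 0.0150). Among the other 4 regulators, none was called. Cd59a, which blocks the membrane attack complex and is named after its values were seen, did not overlap either, at 46.9, 56.6, 56.4 and 47.1 against 39.8 to 46.2 CPM (log2 fold change 0.24, adjusted p = 0.0564).

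Thbd (chromosome 2, 148404466 to 148408188) was at 89.6, 85.2, 78.8 and 82.3 CPM in CD5L KO and 111, 111, 117, 122 and 114 in WT kidneys. The groups lay clear of each other, and the log2 fold change was -0.46 (SE 0.0545, edgeR adjusted p = 0.00464). F2r (chromosome 13, 95601803 to 95618487) was at 321, 375, 341 and 339 CPM against 459, 499, 477, 461 and 482, again without overlap (log2 fold change -0.47, SE 0.0582, edgeR adjusted p = 0.00464).

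Vwf (chromosome 6, 125546774 to 125686679) was at 14.9, 12.2, 13.2 and 14.3 CPM in CD5L KO and 15.5, 21.4, 16.9, 19.1 and 19.6 in WT kidneys. The groups did not overlap, but WT replicate 1 and CD5L KO replicate 1 were close, and the log2 fold change was -0.45 (SE 0.106, edgeR adjusted p = 0.0202). The call for Vwf was lost without CD5L KO replicate 2 (adjusted p = 0.0611) or 3 (0.0507), without WT replicate 2 (0.0510) or 4 (0.0512), and with an offset for gene length (0.0746). When all 19 kidneys shared 1 estimate of spread, none of the 4 was called (adjusted p from 0.103 for F2r to 0.608 for Vwf). With replicate 4 of the CD5L KO rCD5L group left out of that fit, Cfi, Thbd and F2r were called and Vwf was not (adjusted p = 0.128).

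**Figure D2:**
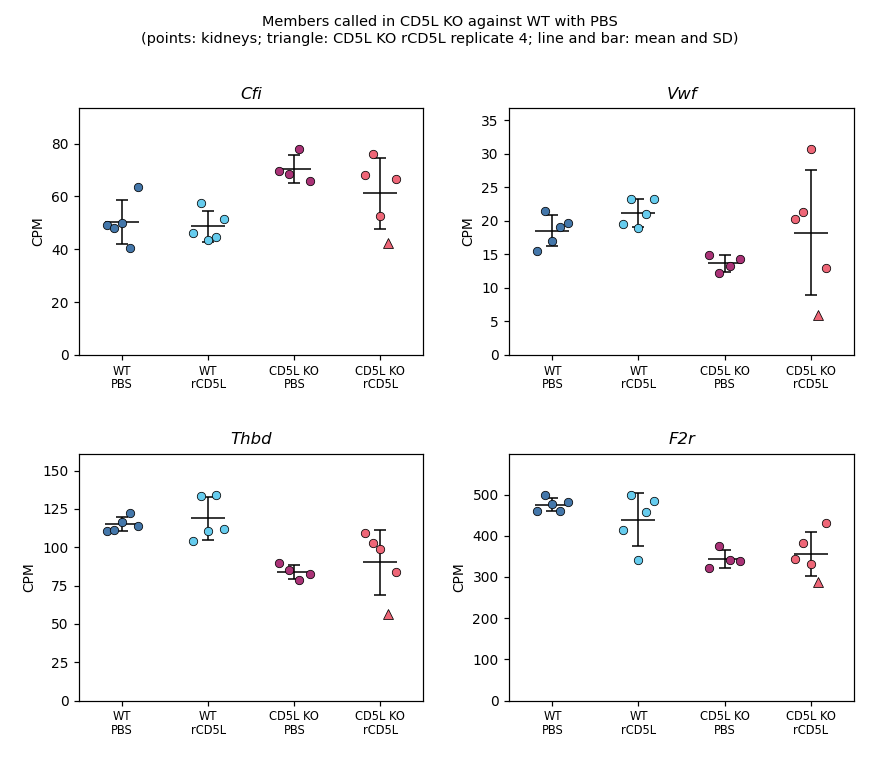
CPM of Cfi, Vwf, Thbd and F2r in each kidney by group, with mean and SD as line and bar and CD5L KO rCD5L replicate 4 as a triangle. With PBS, the CD5L KO kidneys lie above the WT kidneys for Cfi and below them for Vwf, Thbd and F2r.

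Endothelial markers were lower in the same kidneys as Thbd, Vwf and F2r. The 8 endothelial markers (Pecam1, Cdh5, Kdr, Tek, Tie1, Emcn, Egfl7 and Flt1) summed to 593 to 667 CPM in CD5L KO and 703 to 814 in WT kidneys given PBS, all 8 had a log2 fold change below 0, and 4 were called. Per 100 CPM of that sum, Thbd was 12.8 to 15.1 in CD5L KO and 13.8 to 16.2 in WT kidneys, Vwf was 1.82 to 2.52 and 2.11 to 2.79, and F2r was 54.2 to 57.1 and 56.6 to 68.6. Each of the 3 ranges overlapped between the genotypes. The medians were lower in CD5L KO than in WT kidneys for Thbd (13.5 and 15.1), Vwf (2.30 and 2.35) and F2r (56.5 and 62.6). Procr, the endothelial protein C receptor, was not called (log2 fold change -0.19, SE 0.165, adjusted p = 0.518). The 8 fibroblast markers summed to 2916 to 3930 CPM in CD5L KO and 4125 to 6225 in WT kidneys, with 5 called lower. Smooth muscle and myofibroblast markers were below 0 for 6 of 6 (median log2 fold change -0.42, 1 called) and podocyte markers for 5 of 5 (median -0.19, 1 called), each list with 3 at an unadjusted p under 0.05. Other lists were higher. Urothelium markers were above 0 for 6 of 6 (median 0.76, 1 without overlap, 0 called) and adipocyte markers for 7 of 7 tested (median 0.60, 1 called). The part of these cell types in Cfi and in the 3 lower genes was not tested.

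Counting members whose groups did not overlap gave 5 of 46, 2 higher (Cfi and Cd59a) and 3 lower (Vwf, Thbd and F2r), against 14.1% of all genes tested (7.35% higher and 6.74% lower). At an unadjusted p under 0.05 there were 11 members, 6 higher and 5 lower, against 26.6% of all genes (12.6% higher and 14% lower).

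**Figure D3:**
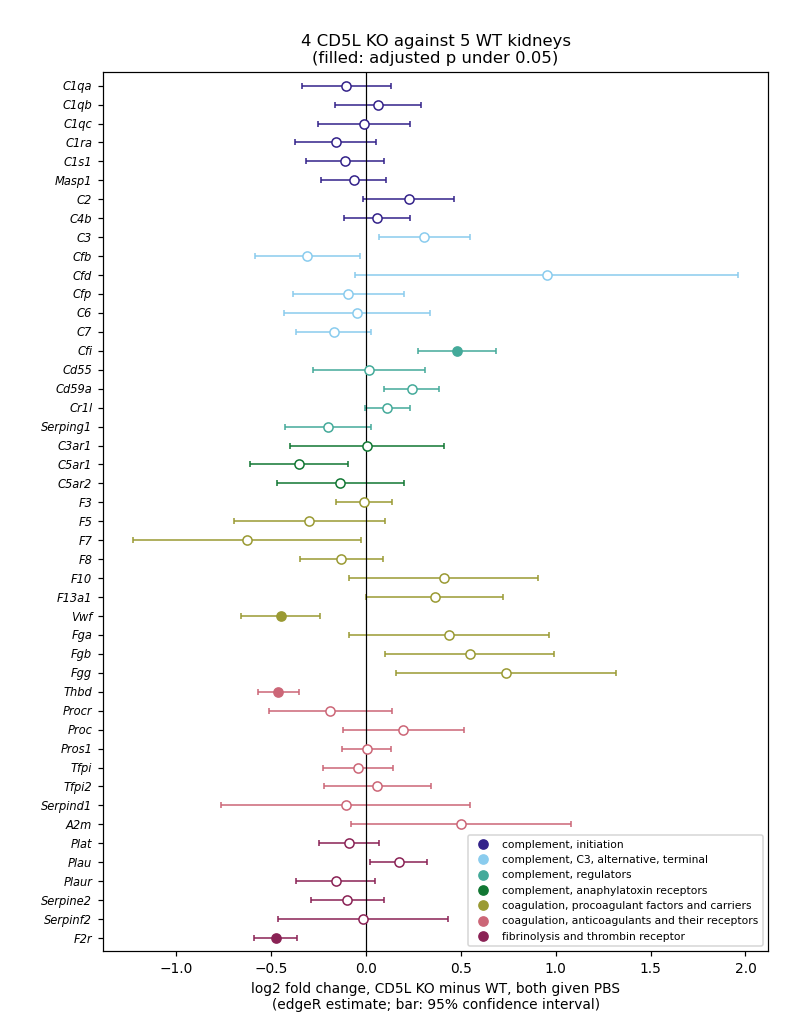
Log2 fold change of each of the 46 tested members (rows, coloured by role) for 4 CD5L KO against 5 WT kidneys, all given PBS. Bars mark the approximate 95% interval and filled points an adjusted p under 0.05. Cfi is the filled point above 0, and Vwf, Thbd and F2r are the filled points below 0.

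Genes that start complement activation did not pass the test in either direction (0 of 8, median log2 fold change -0.04). C1qa, C1qb and C1qc, which are named after their values were seen, had log2 fold changes of -0.10 (SE 0.119), 0.06 (SE 0.116) and -0.01 (SE 0.124). Over the alternatives, the value of C1qb ran from -0.13 to 0.16 and that of C1qc from -0.15 to 0.09. C2, whose fragment is the protease of the classical C3 convertase, had the largest absolute log2 fold change in this list. It was at 36.1, 37.4, 28.5 and 37.0 CPM in CD5L KO and at 38.8, 26.1, 28.4, 26.4 and 28.0 in WT kidneys. WT replicate 1 was high and CD5L KO replicate 3 low in their groups, and the log2 fold change was 0.23 (SE 0.122, adjusted p = 0.258). Without WT replicate 1 it was 0.35 and was called (adjusted p = 0.0362). C2 and Cfb both overlap the gene model Gm20547 on their own strand, and C2 also overlaps Zbtb12 on the other, so their counts are less certain.

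Of C3, the alternative pathway and the terminal pathway, 0 of 6 passed the test. Cfd, factor D, a protease that fat cells secrete, had the largest absolute log2 fold change of this list. It was at 107, 148, 90.1 and 37.5 CPM in CD5L KO and at 126, 49.1, 22.9, 18.1 and 29.5 in WT kidneys given PBS. WT replicate 1 was within the CD5L KO range, and the log2 fold change of 0.95 (SE 0.515, adjusted p = 0.261) became 1.67 and was called without that kidney (adjusted p = 0.0215). The kidney with the most Adipoq in the WT group was the same replicate 1, at 16.1 CPM against 4.44 to 6.40 in the other 4, and the CD5L KO kidneys held 8.16 to 18.7. Of the 8 adipocyte markers, 7 were tested and all 7 were above 0 (median log2 fold change 0.60). Of these, 4 were at an unadjusted p under 0.05 and 1 was called. Their sum was 161 to 267 CPM in CD5L KO and 123 to 207 in WT kidneys given PBS. Per 100 CPM of that sum, Cfd was 23.2 to 55.6 in CD5L KO and 12.3 to 60.8 in WT kidneys. The part of fat in Cfd was not tested. C3 itself, named after its values were seen, was at 1534 to 1869 CPM in CD5L KO and 1099 to 1702 in WT kidneys (log2 fold change 0.31, SE 0.122, adjusted p = 0.127). It was called in 3 of 18 alternatives.

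Among the anaphylatoxin receptors, 0 of 3 passed. C5ar1, the receptor of C5a on myeloid cells, was at 14.3, 16.2, 15.6 and 17.7 CPM in CD5L KO and 16.6, 22.4, 16.6, 25.9 and 20.0 in WT kidneys. CD5L KO replicate 4 reached into the WT range, and the log2 fold change was -0.35 (SE 0.131, adjusted p = 0.109). Of the macrophage markers, 7 of 10 were below 0 (median log2 fold change -0.12, 2 called lower) and 3 were above 0 (0 called). Their part in C5ar1 was not tested. C3ar1 had a log2 fold change of 0.01 (SE 0.207), which was -0.17 to 0.15 over the alternatives.

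Within the procoagulant list, Vwf was the 1 called of 10. Fgg, the gamma chain of fibrinogen, had the largest absolute log2 fold change, at 64.7, 92.9, 191 and 68.9 CPM in CD5L KO and 43.3, 70.8, 85.4, 46.3 and 65.4 in WT kidneys. CD5L KO replicate 3 was far above the rest and the other 3 overlapped the WT kidneys. The log2 fold change was 0.74 (SE 0.296, adjusted p = 0.134), and 0.28 without that replicate (adjusted p = 0.436). Fga and Fgb had their highest value of the group in the same kidney, at 218 and 31.4 CPM.

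Of the anticoagulants, Thbd was the 1 called of 8. A2m, a broad protease inhibitor near the lower limit of detection, had the largest absolute log2 fold change of the list, at 2.25, 1.82, 4.15 and 1.86 CPM in CD5L KO and 1.95, 1.66, 1.04, 1.77 and 2.39 in WT kidneys. The groups overlapped (log2 fold change 0.50, SE 0.296, adjusted p = 0.306). In the fibrinolysis list, F2r was the 1 called of 6, and the plasminogen activators Plat (log2 fold change -0.09) and Plau (0.17, adjusted p = 0.171) were not called.

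C1q is assembled from equal numbers of its A, B and C chains, so the ratio of the chain genes within a kidney was also examined, a choice made after the values were seen. Over the 19 kidneys, each chain gene varied by about as much as the others (coefficient of variation 19.1% to 20.2% of FPKM), while the ratio of C1qa to C1qb varied by 6.34% and that of C1qc to C1qb by 5.01%. With PBS, C1qa over C1qb was 0.980, 0.928, 0.993 and 0.918 in CD5L KO and 1.10, 1.06, 1.06, 1.08 and 1.05 in WT kidneys. The genotypes did not overlap. The exact two-sided permutation test gave p = 0.0159, the smallest that 4 against 5 kidneys allow, and 0.169 after adjustment over 32 ratio tests.

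With rCD5L, C1qa over C1qb was 0.954, 1.01, 0.974, 0.868 and 1.01 in CD5L KO and 1.08, 1.07, 0.985, 1.06 and 1.07 in WT kidneys, with WT replicate 3 among the CD5L KO values (exact permutation p = 0.0238, adjusted 0.169). C1qc over C1qb was 0.377 to 0.413 in CD5L KO and 0.419 to 0.453 in WT kidneys given rCD5L and did not overlap (exact permutation p = 0.00794, adjusted 0.169). In kidneys given PBS the same ratio was 0.390 to 0.414 and 0.413 to 0.440. None of the 32 ratio tests passed the adjustment. The 3 genes lie together on chromosome 4 (136880129 to 136898803), and their lengths in the count table were 1040, 1088 and 1931 bases for C1qa, C1qb and C1qc.

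**Figure D4:**
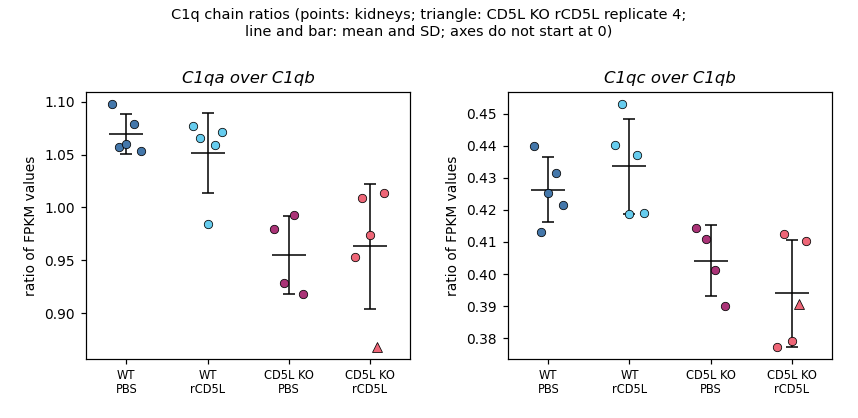
Ratio of the FPKM values of C1qa to C1qb (left) and of C1qc to C1qb (right) in each kidney by group, with mean and SD as line and bar and CD5L KO rCD5L replicate 4 as a triangle. For C1qa over C1qb, the 4 CD5L KO kidneys given PBS lie between 0.918 and 0.993 and the 5 WT kidneys given PBS between 1.05 and 1.10.

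The response to rCD5L in CD5L KO mice was examined next. No member was called (0 of 46), as for all 17467 genes tested (0%). At an unadjusted p under 0.05 there was 1 member, Cfb, which was higher, against 2.87% of all genes (1.4% higher and 1.47% lower), and DESeq2 called 0 members and 10 genes. Groups overlapped for all 46 members, against 2.35% of all genes without overlap (1.25% higher and 1.1% lower). A log2 fold change above 0 was found for 18 members, against 53.5% of all genes. The common biological coefficient of variation was 28.8% here and 12.6% in the comparison of genotypes with PBS.

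Cfb, the protease subunit of the alternative C3 convertase, was at 12.4, 12.96, 17.5, 31.9 and 12.4 CPM with rCD5L and 8.48, 8.91, 10.9 and 12.9 with PBS. Replicate 4 was the highest of the rCD5L kidneys, and the lowest of them overlapped the highest PBS kidney. The log2 fold change was 0.74 (SE 0.297, adjusted p = 0.897), and 0.42 without replicate 4.

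F5, the cofactor of factor X, was at 4.11, 4.42, 1.54, 15.9 and 2.23 CPM with rCD5L and 1.85, 2.81, 2.17 and 2.43 with PBS. Replicate 4 was again far above the rest, and the log2 fold change of 1.25 (SE 0.606, adjusted p = 0.897) was 0.41 without it. Tfpi, the inhibitor of the tissue factor pathway, was at 23.8, 26.6, 20.7, 23.8 and 23.7 CPM against 28.1, 30.4, 25.7 and 26.5. Only rCD5L replicate 2 reached the PBS range, and the log2 fold change was -0.23 (SE 0.116, adjusted p = 0.897) with replicate 4 and -0.23 without it. Epididymis markers were above 0 for 5 of 5 tested here (median 1.46), 4 of them at an unadjusted p under 0.05, 3 without overlap and 0 called, and their sum was 24.4 to 62.3 CPM with rCD5L and 8.12 to 21.7 with PBS. With replicate 4 included, proximal tubule markers were above 0 for 8 of 8 (median 1.29) and hepatocyte markers for 5 of 5 tested (median 0.92). Urothelium markers were below 0 for 6 of 6 (median -0.46), and 0 markers of these lists were called. The part of all these markers in the members was not tested. Intervals were wide in this comparison: that of C3 reached from -0.98 to 0.91 on the log2 scale around an estimate of -0.03, which was 0.26 without replicate 4.

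In WT mice, rCD5L was compared with PBS in the same way. No member was called (0 of 46), and none of 17455 genes was (0%). At an unadjusted p under 0.05 there were 9 members, 4 higher and 5 lower, against 16% of all genes (8.31% higher and 7.71% lower), and DESeq2 called 1 member and 542 genes. The groups did not overlap for 1 member, against 3.6% of all genes (1.69% higher and 1.91% lower). Of the members, 21 had a log2 fold change above 0, against 51.3% of all genes. The common biological coefficient of variation was 11.6%.

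F10 (chromosome 8, 13037308 to 13056676), factor X, the protease that turns prothrombin into thrombin, had the smallest p. It was at 5.98, 4.86, 6.91, 6.88 and 5.40 CPM with rCD5L and 4.82, 3.04, 3.21, 3.01 and 4.19 with PBS. All 5 rCD5L kidneys were above all 5 PBS kidneys, the closest pair being 4.86 and 4.82. Several marker lists were higher with rCD5L in this comparison, with 0 markers called. Epididymis markers were above 0 for 5 of 5 tested (median log2 fold change 0.70, 3 at an unadjusted p under 0.05), T and B cell markers for 7 of 7 (median 0.41, 1 at that p) and macrophage markers for 8 of 10 (median 0.06, 2 at that p). Their part in F10 was not tested. The log2 fold change was 0.73 (SE 0.168), with an edgeR adjusted p of 0.107 and a DESeq2 adjusted p of 0.00704. In CD5L KO mice, F10 was at 6.93, 6.27, 5.72, 2.07 and 7.08 CPM with rCD5L and 6.72, 4.24, 2.68 and 5.89 with PBS (log2 fold change 0.20, SE 0.365, and 0.41 without replicate 4). The interaction for F10 was -0.50 (approximate 95% interval -1.28 to 0.27), and -0.31 without that replicate. A difference in response between the genotypes was thus not detectable with these kidneys.

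C7, a terminal pathway component that fibroblasts make, was at 50.4, 51.3, 51.0, 57.9 and 56.4 CPM with rCD5L and 40.0, 39.8, 42.9, 42.7 and 57.5 with PBS. PBS replicate 5 was within the rCD5L range and the other 4 were below it (log2 fold change 0.27, SE 0.0915, adjusted p = 0.172). Fibroblast markers were above 0 for 6 of 8 (median log2 fold change 0.15), 1 of them at an unadjusted p under 0.05 and 0 called. Their part in C7 was not tested. Plaur, the urokinase receptor, was at 21.2, 24.8, 24.4, 25.5 and 26.4 CPM with rCD5L and 26.9, 31.1, 26.8, 34.5 and 26.2 with PBS. Only PBS replicate 5 fell within the rCD5L range (log2 fold change -0.24, SE 0.0865, adjusted p = 0.195). The 5 members with an unadjusted p under 0.05 and a negative change were Fga, Fgg, Proc, Plaur and Serpinf2, with log2 fold changes from -0.43 to -0.24. Proximal tubule markers were lower in the same comparison, with 8 of 8 below 0 (median log2 fold change -0.38), 4 of them at an unadjusted p under 0.05 and 0 called. Of the hepatocyte markers, 5 of 5 tested were below 0 (median -0.22), 2 of them at an unadjusted p under 0.05 and 0 called. The part of these markers in the 5 members was not tested.

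The genotypes were also compared with rCD5L given to both. Fgg, Fgb and Fga were higher in all 5 CD5L KO kidneys than in all 5 WT kidneys, but no member was called (0 of 46), and none of 17360 genes was (0%). There were 9 members at an unadjusted p under 0.05, 6 higher and 3 lower, against 17.8% of all genes (11% higher and 6.8% lower), and DESeq2 called 2 members and 129 genes. Groups did not overlap for 7 members, 5 higher (Fga, Fgb, Fgg, Proc and Tfpi2) and 2 lower (C7 and C5ar1), against 7.51% of all genes tested (4.63% higher and 2.89% lower). Of the 46, 16 members had a log2 fold change above 0, against 48.9% of all genes. Macrophage markers, with replicate 4 included, were below 0 for 10 of 10 (median log2 fold change -0.30). Of these, 1 was at an unadjusted p under 0.05, 1 was without overlap and 0 were called. The part of macrophages in C5ar1 was not tested.

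Markers of other cell types differed in the same direction as the fibrinogen genes. With replicate 4 included, all 8 proximal tubule markers had a log2 fold change above 0, 6 of them at an unadjusted p under 0.05, 1 without overlap and 0 called. Their sum was 14546 CPM in that replicate, 1366 to 2373 in the other 4 CD5L KO kidneys and 1002 to 1549 in WT kidneys. The groups overlapped with and without that replicate and lay closer without it. Of the hepatocyte markers, 5 of 5 tested were above 0 with replicate 4 included, 3 of them at an unadjusted p under 0.05 and 0 called, and their sum was 2584 CPM in that replicate, 324 to 396 in the other 4 and 203 to 357 in WT kidneys. The part of these markers in the higher members was not tested.

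Fgg was at 69.5, 68.6, 121, 228 and 84.4 CPM in CD5L KO and 51.4, 50.5, 36.0, 50.4 and 42.4 in WT kidneys. The lowest CD5L KO kidney was above the highest WT kidney, and the log2 fold change was 1.28 (SE 0.309, edgeR adjusted p = 0.259, DESeq2 adjusted p = 0.0151). Leaving out CD5L KO replicate 4 gave 0.87 (adjusted p = 0.0966), and leaving out replicates 3 and 4 gave 0.68 (adjusted p = 0.0140).

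Fga, the alpha chain, was at 86.7, 87.7, 182, 304 and 118 CPM in CD5L KO and 78.5, 79.2, 49.6, 71.4 and 69.5 in WT kidneys. Replicates 3 and 4 were the high ones, and the log2 fold change of 1.13 (SE 0.323, edgeR adjusted p = 0.259, DESeq2 adjusted p = 0.0466) became 0.74 without replicate 4 and 0.47 without both (adjusted p = 0.0694). Fgb, the beta chain, was at 18.4, 14.0, 27.9, 38.2 and 16.9 CPM against 13.6, 12.9, 8.58, 13.6 and 10.9. The same kidneys were high, and the log2 fold change of 0.92 (SE 0.260, adjusted p = 0.259) became 0.67 without replicate 4 and 0.45 without both (adjusted p = 0.107).

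C7 was lower in all CD5L KO than in all WT kidneys given rCD5L, at 38.5, 44.5, 41.0, 20.2 and 37.6 CPM against the WT values given above (log2 fold change -0.57, SE 0.176, adjusted p = 0.259). Without replicate 4 it was -0.42 (adjusted p = 0.120), and without replicates 3 and 4 it was -0.42 and was called (adjusted p = 0.0209), and Cfi and Fgg were the other 2 members called there. The fibroblast marker sum was 1367 to 6226 CPM in the CD5L KO and 4389 to 6106 in the WT kidneys given rCD5L. All 8 fibroblast markers had a log2 fold change below 0 (median -0.47), 2 of them at an unadjusted p under 0.05, 1 without overlap and 0 called. That 1 was Pdgfra, at 75.4 to 206 CPM in CD5L KO and 244 to 301 in WT kidneys. The part of fibroblasts in C7 was not tested.

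The 4 members called with PBS were followed in the kidneys given rCD5L. Thbd was at 109, 103, 99.0, 56.5 and 83.7 CPM in CD5L KO and 104, 134, 111, 134 and 112 in WT kidneys (log2 fold change -0.42, SE 0.168, adjusted p = 0.259, and -0.29 without replicate 4). The groups overlapped. F2r was at 344, 382, 332, 289 and 431 CPM against 415, 499, 341, 458 and 483 (log2 fold change -0.33, SE 0.146, adjusted p = 0.275, and -0.26 without replicate 4), also with overlap. Vwf spread from 5.90 CPM in replicate 4 to 30.7 in replicate 3 of the CD5L KO kidneys, and WT kidneys were at 18.9 to 23.3 (log2 fold change -0.24, and -0.01 without replicate 4). Cfi was at 68.1, 75.9, 52.5, 42.5 and 66.7 CPM against 46.1, 57.6, 43.6, 44.8 and 51.4, with replicate 4 the lowest of these 10 (log2 fold change 0.31, adjusted p = 0.314, and 0.42 without it). The 2 comparisons of genotypes use different kidneys. Endothelial markers summed to 604 to 622 CPM in CD5L KO and 649 to 714 in WT kidneys given rCD5L, without overlap. In CD5L KO replicate 4 the sum was 611 CPM, against a median of 612 in the other 4 of its group. Thbd was 56.5 CPM there against a median of 101, Vwf 5.90 against 20.8 and F2r 289 against 363.

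A test of the interaction asked whether the genotypes differed in the response to rCD5L. No member was called (0 of 46), as for all 18454 genes (0%), with 2 members at an unadjusted p under 0.05 against 6.25% of all genes (4.41% above 0 and 1.84% below). The interaction was above 0 for 18 members, against 53% of all genes. DESeq2 called 0 members and 0 genes. Cfb had the smallest p, with an interaction of 0.94 (SE 0.320, adjusted p = 0.731), and its WT levels were 9.97, 12.9, 9.79, 10.7 and 12.1 CPM with rCD5L and 13.8, 10.6, 11.4, 12.7 and 14.7 with PBS. The log2 fold change was -0.18 in WT and 0.74 in CD5L KO mice. Without CD5L KO rCD5L replicate 4 the interaction was 0.60.

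Serpinf2, which encodes the main inhibitor of plasmin, was at 68.3, 82.9, 189, 578 and 75.6 CPM in CD5L KO kidneys given rCD5L and 56.7, 73.8, 119 and 84.7 in those given PBS. In WT kidneys it was at 67.0, 73.4, 43.0, 66.9 and 66.8 with rCD5L and 58.4, 75.2, 129, 70.3 and 86.9 with PBS. Replicate 4 was far above every other kidney, and the interaction of 1.65 (SE 0.669, adjusted p = 0.731) became 0.70 without it and 0.26 without replicates 3 and 4.

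Proc, protein C, was at 44.8, 45.3, 97.9, 288 and 50.5 CPM in CD5L KO kidneys given rCD5L and 45.8, 48.7, 76.9 and 53.5 in those given PBS. In WT kidneys it was at 39.2, 44.7, 37.6, 41.4 and 36.6 with rCD5L and 39.9, 42.8, 65.6, 45.3 and 50.0 with PBS. The same kidneys stood out as for Serpinf2, and the interaction of 1.19 (SE 0.570, adjusted p = 0.731) became 0.36 without replicate 4 and 0.03 without replicates 3 and 4.

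**Figure D5:**
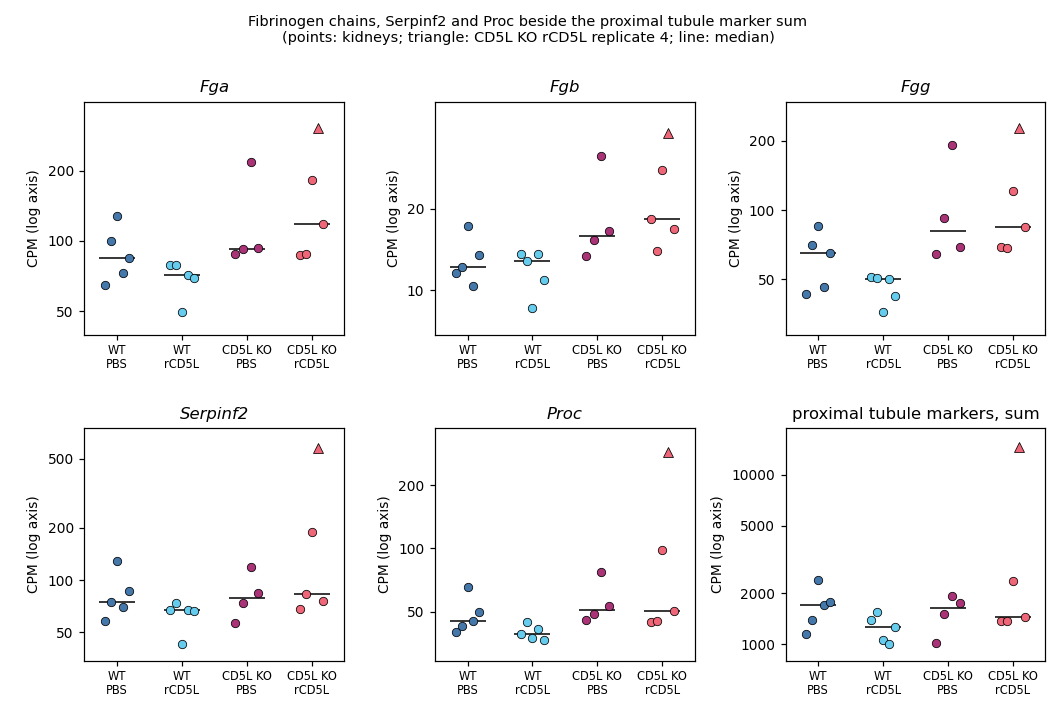
CPM on log axes of Fga, Fgb, Fgg, Serpinf2 and Proc, and the summed CPM of the 8 proximal tubule markers, in each kidney by group, with the median as a line and CD5L KO rCD5L replicate 4 as a triangle. In that kidney the marker sum is 14546 CPM, against 1002 to 2391 in the others, and all 5 genes have their highest value.

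The kidney with the most proximal tubule RNA in each group was then read for every member. In each of the 4 groups, the kidney with the highest proximal tubule sum also had the highest Fga, Serpinf2 and Proc, and for Fgb, Fgg and F5 this held in 3 of 4 groups. C5ar2, the second C5a receptor, was lowest in that kidney in 4 of 4 groups. The kidney with the highest hepatocyte marker sum was the same one in each group, so the same tally holds for that list. Other lists gave tallies too. Read by the kidney with the highest sum, 4 members were highest in 3 of 4 groups for macrophage markers, 3 for endothelial, 3 for adipocyte and 2 for fibroblast markers, and 1 member was lowest in 4 of 4 for adipocyte markers. None of these 4 lists had a member that was highest in 4 of 4. Per 100 CPM of the proximal tubule sum, Serpinf2 was 4.15 to 5.44 in WT and 4.84 to 6.16 in CD5L KO kidneys given PBS, and it was 3.98 to 7.97 in CD5L KO kidneys given rCD5L, replicate 4 included. Fgg per 100 CPM was 2.73 to 5.12 in WT and 3.94 to 9.88 in CD5L KO kidneys given PBS, and 3.26 to 5.03 and 1.57 to 5.79 with rCD5L. These ranges overlapped between the genotypes, and the part of tubular RNA in these genes was not tested.

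Fibrinogen, plasmin inhibitor and protein C are mainly hepatic products, so hepatocyte markers were read as well. Albumin (Alb) was at 0.406 to 4.83 CPM over the 19 kidneys, Ahsg at 0.0397 to 0.418, Serpina3k at 0 to 0.262, Apoa1 at 0 to 1.23, Apoa2 at 0.644 to 6.20 and Ttr at 2.49 to 53.8. Alb, Apoa1, Apoa2 and Ttr had their highest value, 4.83, 1.23, 6.20 and 53.8 CPM, in replicate 4 of the CD5L KO rCD5L group, the kidney with the most Fga. In the other 18 kidneys Alb was at most 1.87 CPM. The part of hepatocyte RNA in these members was not tested. Cyp2e1 and Apob, which tubular cells also express, made up most of the hepatocyte list, and its sum was 203 to 623 CPM in 18 kidneys and 2584 in replicate 4 of the CD5L KO rCD5L group.

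The other genes of the pathway, a list of 70 with 50 tested in the comparison of genotypes with PBS, held 5 that were called (10%, against 10.5% of all genes), 2 higher and 3 lower. S100a10, which with annexin A2 forms a plasminogen receptor, was at 370, 388, 402 and 424 CPM in CD5L KO and 317, 272, 277, 271 and 294 in WT kidneys (log2 fold change 0.46, SE 0.0640, adjusted p = 0.00470). Serpina10, the inhibitor of factor Xa that acts with protein Z, was at 135, 118, 127 and 129 against 103, 82.4, 83.7, 78.3 and 106 (0.48, SE 0.0920, adjusted p = 0.00893). Both were higher in every CD5L KO kidney than in every WT kidney.

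Cd93, a receptor of endothelium and myeloid cells related to the C1q receptors, was at 65.6, 72.4, 61.3 and 60.7 CPM in CD5L KO and 86.3, 114, 79.8, 117 and 96.4 in WT kidneys (log2 fold change -0.61, SE 0.111, adjusted p = 0.00774). Ggcx, the carboxylase that vitamin K-dependent factors need, was at 24.5, 23.7, 24.7 and 23.9 against 28.5, 30.4, 26.9, 26.2 and 29.3 (-0.23, SE 0.0644, adjusted p = 0.0391). For both, every CD5L KO kidney was below every WT kidney. In the other comparisons, 0 genes of this list were called.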

How the data were processed

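RNA of 19 whole obstructed kidneys had been sequenced from random-hexamer libraries. The authors trimmed reads with Trimmomatic, aligned them with HISAT2 to GRCm38 and counted them per gene with featureCounts. The strand and multimapper settings are not given in the sources used here. The deposited values were raw counts per gene and the authors' FPKM, which were counts divided by gene length and by 1 constant per kidney.

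Samples were grouped by genotype and treatment as labelled. Counts were scaled by TMM, filtered with filterByExpr at a minimum count of 10 and tested with edgeR 4.0.16 (R 4.3.3, limma 3.58.1) by the quasi-likelihood method, each comparison on its own groups. The p-values were adjusted by Benjamini-Hochberg over all genes tested, and calls were made at 0.05. The SE was the absolute log2 fold change over the square root of the F statistic of the test. Intervals used a normal multiple of this SE, so they are approximate and somewhat narrow for groups this small. The labels name no batch. The p-values set a group difference against the spread between kidneys within groups, whatever the source of that spread. A batch that coincided with the groups would enter the difference and could not be told apart from it. DESeq2 1.42.0, other size factors, filters, a gene length offset, a replicate block, 1 fit of all samples and leaving out each kidney were alternatives. FPKM ratios were compared by exact two-sided permutation tests (scipy 1.17.1). The script for fits was tested on simulated data, where a larger share of the calls of DESeq2 than of edgeR was false in each of the 5 comparisons. The share of edgeR was itself above the threshold of 0.05 in most of them. The simulated counts were drawn with dispersions that edgeR had estimated, so they cannot rank the tools on these kidneys.

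Members and lists were chosen with earlier results of these data known. Per-kidney values are given for called members, the 3 with the smallest p in each comparison and, in each role, the largest absolute log2 fold change between genotypes with PBS. Of the other genes of the pathway, those called are given, except 1 that is not reported here. C3, Cd59a, the C1q chains, Procr, C3ar1, Plat, Plau and the ratios were added after values were seen.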

Additional observations from a re-analysis of the deposited data

Results flagged for a closer look

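In 92 sets of 1 gene in 1 group (23 genes), a kidney was looked for whose gap to its nearest neighbour was a large part of the range of the group (Dixon's 95% limit). It was found in 13 sets, and 6 of the 13 were replicate 4 of the CD5L KO rCD5L group. Chance gives about 1 in 20 where genes are not chosen by their values, but these genes were named for their p or fold change in the same kidneys, so the count cannot be read against it. In that kidney the gap was 0.735 of the range for Cfb (31.9 CPM, others 12.4 to 17.5), 0.8 for F5 (15.9, others 1.54 to 4.42), 0.763 for Serpinf2 (578, others 68.3 to 189) and 0.782 for Proc (288, others 44.8 to 97.9), all high. It was 0.728 for F10 (2.07, others 5.72 to 7.08) and 0.715 for C7 (20.2, others 37.6 to 44.5), both low.

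Among CD5L KO kidneys given PBS, replicate 3 was apart for Fga (gap 0.963, 218 CPM, others 88.0 to 92.9) and for C2 (0.855, 28.5, others 36.1 to 37.4). Among WT kidneys given PBS, replicate 1 was apart for C2 (0.817, 38.8, others 26.1 to 28.4) and Cfd (0.713, 126, others 18.1 to 49.1), and replicate 5 for C7 (0.824, 57.5, others 39.8 to 42.9). Among WT kidneys given rCD5L, replicate 3 was apart for Serpinf2 (0.782, 43.0, others 66.8 to 73.4) and Cfd (0.749, 64.5, others 10.1 to 23.7).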

How the results depend on the processing

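Of the members named by rule, none changed direction in its comparison under any alternative run, and of those added later C1qb, C1qc and C3ar1 (genotypes with PBS) and C3 (rCD5L in CD5L KO mice, -0.40 to 0.26) did. For CD5L KO against WT with PBS, the 1850 genes called became 1170 with the gene length offset, 12 with all 19 samples in 1 fit and 742 in that fit without CD5L KO rCD5L replicate 4, and 1015 to 2062 with 1 kidney left out. The 4 members called became 10 with the replicate block, 9 with the block and the length offset, 0 with all 19 samples in 1 fit, and 3 to 6 with 1 kidney left out. Vwf was not among the 9 (adjusted p = 0.122). Beside the 4, the replicate block called C3, Cfd, C5ar1, Fgb, Fgg and Proc. The block with the length offset called C1qa, C3, Serping1, C5ar1, Fgb and Fgg beside Cfi, Thbd and F2r. C3 was also called without WT PBS replicate 5. Cd59a was called with DESeq2 and without CD5L KO PBS replicate 4. The replicate numbers were not taken to pair the kidneys, since no comparison had every same-numbered pair correlated above 0.1 (2 of 4 pairs between genotypes with PBS, 3 of 4 for rCD5L in CD5L KO mice, 0 of 5 in the other 2). For rCD5L in CD5L KO mice, the 0 genes called became 10 with DESeq2 and 1 in the 18-sample fit. For rCD5L in WT mice, the 0 genes became 542 with DESeq2, 137 with no filter on low counts and 0 to 39 with 1 kidney left out, 39 being without WT PBS replicate 1, and the 0 members became 1 with DESeq2. For CD5L KO against WT with rCD5L, the 0 genes became 129 with DESeq2, 1291 with all 19 samples, 679 in the 18-sample fit, 644 without replicates 3 and 4, and 0 to 1 with 1 kidney left out, and the 0 members became 2, 6, 1 and 3 in the first 4 of these. The cause was not tested. The 18-sample fit and leaving out replicates 3 and 4 were chosen after seeing the data. Limits are the 4 or 5 kidneys per group, low counts of A2m, F5, F7 and Serpind1, and whole-organ RNA.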
